A study of Mus musculus with 10 samples.

Results

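Trp53, which encodes the tumour suppressor p53 in the mouse, and 9 genes known as direct targets of p53 were followed in Neuro2a cells, a mouse neuroblastoma line. The 9 targets were Cdkn1a, Mdm2, Ccng1, Bax, Bbc3, Phlda3, Trp53inp1, Sesn1 and Zmat3. These 10 genes were chosen by name, with earlier results of these data known. They were found by Ensembl identifier among the 55401 genes listed in every library. The study asked how expression changes when SCN9A, the gene of the sodium channel Nav1.7, is knocked down with a zinc-finger protein or with dCas9, a Cas9 that no longer cuts DNA. The 10 RNA-seq libraries fall into 4 groups by plasmid, all from cells labelled wild-type: 3 of dCas9-SCN9A, 3 of its control dCas9-empty, 2 of ZF-SCN9A and 2 of mCherry, a plasmid for a red fluorescent protein that serves here as the zinc finger's control. All groups shared the protocol, with 0.5 µg of plasmid delivered by Lipofectamine, a change of medium after 24 h and an incubation of 72 h. The protocol names no selection of transfected cells. What dCas9-empty targets and where the repressors bind were not given in the sources used here.

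p53 is a transcription factor that is held low in resting cells because MDM2, the product of its own target gene, marks it for degradation. After DNA damage, nucleolar stress or oncogene signalling the protein is stabilised, binds paired half-sites near its target genes and raises their transcription. The targets stop the cell cycle (Cdkn1a encodes the inhibitor p21), promote death through mitochondria (Bax and Bbc3, which encodes PUMA), feed back on p53 (Mdm2, Ccng1, Trp53inp1) or restrain growth signalling (Phlda3 on Akt, Sesn1 on mTORC1). Zmat3 encodes an RNA-binding zinc-finger protein. Because p53 is controlled largely at the level of protein, the messenger RNA of its targets is the usual readout of its activity.

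Promoter stretches that resemble the p53 consensus are shown first, because a shared element is what the members that hold one have in common in sequence. RefSeq promoter windows of build GRCm38.p6, running from 250 bases before to 50 bases after a transcription start, were available for 8 of the 10 genes and gave 12 windows. Zmat3 and Trp53inp1 are named only. Each window was searched for the p53 half-site consensus of 10 bases, which reads the same on both strands, and for a full site of 2 such half-sites with up to 13 bases between them and at most 1 mismatch over both. A half-site was found in 6 of the 12 windows and a full site in 3, against 8.36% and 1.09% of all 32851 windows in the table. This contrast is no test, since the targets were chosen as known targets of p53 and windows of Bbc3 overlap in part. The 3 stretches with a full site are printed 5′ to 3′ on the strand of the gene, with the half-sites in capitals.
Cdkn1a: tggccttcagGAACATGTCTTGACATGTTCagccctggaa
Ccng1: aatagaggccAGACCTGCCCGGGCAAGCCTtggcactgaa
Bax: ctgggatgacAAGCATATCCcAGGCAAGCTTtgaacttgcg
The Cdkn1a stretch is chr17:29090918-29090957 on the plus strand. Its capitals begin 51 bases before the transcription start of the window chr17:29090729-29091028. Its 2 half-sites touch, as do those of Ccng1 (chr11:40755452-40755491, minus strand, 195 bases before the start). In Bax (chr7:45467080-45467120, minus strand, 212 bases before the start) 1 base lies between them. Where more than 1 pair of half-sites met the rule, the pair with the fewest bases between them was printed. Each of the 3 full sites as printed carried 1 mismatch to the consensus.

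Single half-sites without a mismatch stood in the windows of Mdm2, Trp53 and Sesn1, and a further half-site in Cdkn1a. The further one lies within 13 bases of the first half-site printed for Cdkn1a above. Together they also meet the rule for a full site, without a mismatch. These half-sites are printed here in the same way because they show how short the shared element is.
Mdm2: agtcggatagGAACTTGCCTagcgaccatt
Trp53: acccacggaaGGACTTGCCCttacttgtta
Sesn1: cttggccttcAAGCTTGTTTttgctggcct
Cdkn1a: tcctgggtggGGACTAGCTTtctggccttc
They lie at chr10:117710925-117710954 (minus strand) in Mdm2, at chr11:69580274-69580303 (plus strand) in Trp53, at chr10:41887256-41887285 (plus strand) in Sesn1 and at chr17:29090896-29090925 (plus strand) in Cdkn1a. The windows of Bbc3 and Phlda3 held no half-site. Nor did another window of Cdkn1a (chr17:29093519-29093818) and another of Sesn1 (chr10:41810324-41810623). A match is a description of these letters and not a measurement of binding, and a window without one says nothing about sites elsewhere in the gene.

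Gene counts per library were 17770383 to 18984566 in dCas9-empty, 15356843 to 16351528 in dCas9-SCN9A, 6588126 to 7478956 in mCherry and 4412097 to 6297752 in ZF-SCN9A. Levels are given as CPM, gene counts scaled to a common library size with TMM factors over all 10 libraries. In each library the plasmid entries of its own kind (dCas9, ZF or mCherry) were counted far above those of the other kinds. The dCas9-SCN9A and dCas9-empty libraries share the same entries, so no entry is particular to either label, though their unscaled counts differed. The entry dNCas9 held 81844 to 91766 reads per library in dCas9-empty and 54552 to 62672 in dCas9-SCN9A. The entry dCCas9 held 131446 to 155738 reads in dCas9-empty and 176550 to 200749 in dCas9-SCN9A. Scn9a, the targeted gene, fell with both repressors, to 0.384-fold with dCas9-SCN9A (adjusted p = 2.24e-09) and to 0.295-fold with ZF-SCN9A (adjusted p = 1.71e-34). Of 13 markers of sympathoadrenal neuroblastoma, 12 exceeded 1 CPM in every library. Summed over the markers, the level was 2590 to 3260 CPM, against at most 31.4 CPM for fibroblast, glial, immune or endothelial markers. These other lists were shorter. Of them, 3 of 5 fibroblast, 1 of 5 glial, 1 of 3 endothelial and 0 of 4 immune markers also exceeded 1 CPM in every library. In dCas9-empty the glial marker Mbp averaged 20.4 CPM and the endothelial marker Pecam1 21.9 CPM. Whether the replicates were separate cultures is not stated in the labels, so p-values measure only the spread between these libraries, which may be technical.

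All 10 genes were expressed in the control cells. To compare genes, CPM was divided by the length of each gene's merged exons in kilobases. In dCas9-empty, Phlda3 was highest at 40.8 ± 0.66 CPM per kb (SD, n = 3) and Trp53inp1 lowest at 2.43 CPM per kb. Among protein-coding genes at 1 CPM or more, Phlda3 stood at the percentile 90.3 of the same scale, Trp53 at 85.8, Zmat3 at 40 and Trp53inp1 at 20.2.

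Trp53 (ENSMUSG00000059552, chromosome 11, 69580359 to 69591873, plus strand, GRCm38) stood at 30.3 CPM per kb. Mdm2 (ENSMUSG00000020184, chromosome 10, 117688875 to 117710758, minus strand) stood at 28.7 and Bax (ENSMUSG00000003873, chromosome 7, 45461697 to 45466898, minus strand) at 27.7 CPM per kb. Neighbours in this run of levels overlapped, Trp53 with Mdm2 and Mdm2 with Bax, so their order is not resolved. Cdkn1a (ENSMUSG00000023067, chromosome 17, 29090976 to 29100727, plus strand) at 18.7 and Bbc3 (ENSMUSG00000002083, chromosome 7, 16308393 to 16318205, plus strand) at 17.4 CPM per kb overlapped as well. Below them followed, each without overlap with its neighbours, Sesn1 (ENSMUSG00000038332, chromosome 10, 41809935 to 41908424, plus strand) at 12.1, Ccng1 (ENSMUSG00000020326, chromosome 11, 40748552 to 40755311, minus strand) at 9.70, and Zmat3 (ENSMUSG00000027663, chromosome 3, 32334792 to 32366014, minus strand) at 5.72 CPM per kb. Trp53inp1 (ENSMUSG00000028211, chromosome 4, 11156431 to 11174379, plus strand) closed the order, and Phlda3 (ENSMUSG00000041801, chromosome 1, 135766119 to 135769136, plus strand) led it without overlap with Trp53.

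The order of these levels rests on the length used. With the longest annotated transcript in place of merged exons, Mdm2 came to 46.4 CPM per kb in dCas9-empty and passed Phlda3 at 44.3, and Cdkn1a came to 31.9. Counting did not use strand, and 7.68% of the exon bases of Cdkn1a are shared with AC167363.2 on the opposite strand, and 12.2% of those of Bax with Gm45808 on the same strand. Reads from those stretches cannot be assigned to 1 gene.

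**Figure D1:**
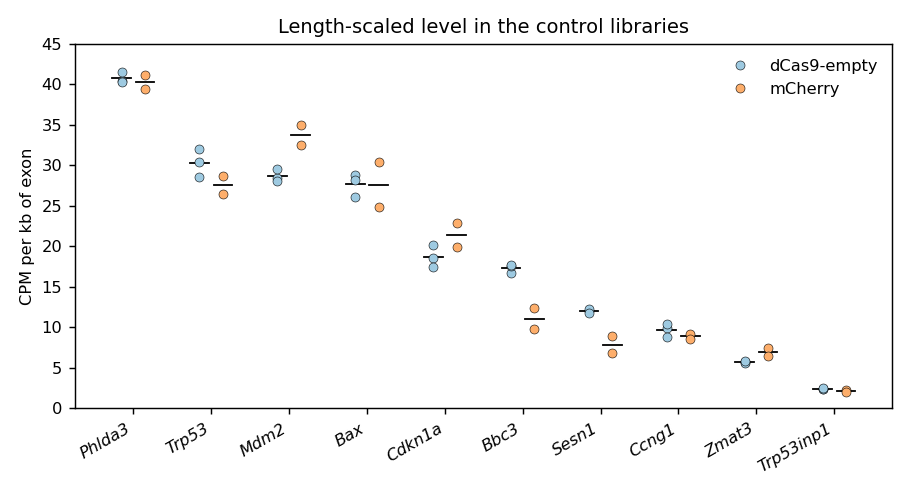
Level of each of the 10 genes in the 5 control libraries, in CPM per kb of merged exons (linear axis from 0); points are libraries of dCas9-empty (3, blue) and mCherry (2, orange), and bars are group means. Phlda3 sits near 40 in both groups and Trp53inp1 between 1.99 and 2.46. Bbc3, Sesn1 and Trp53inp1 are lower in both mCherry libraries than in all dCas9-empty libraries, and Mdm2 and Zmat3 are higher. The share of all genes that separate between the control groups was not counted.

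The mCherry libraries gave a similar order. Phlda3 again led at 40.3 CPM per kb and Trp53inp1 was again last at 2.11. Mdm2 stood second at 33.8 CPM per kb, above Bax and Trp53, which overlapped at 27.6 each. In CPM, Bbc3 was 36.9 ± 1.17 (SD, n = 3) in dCas9-empty and 23.5 ± 4.01 (SD, n = 2) in mCherry, a ratio of 0.638, and Sesn1 was 48.0 ± 0.99 and 31.3 ± 5.83, a ratio of 0.653. The other 8 genes had ratios of mCherry to dCas9-empty from 0.867 in Trp53inp1 to 1.22 in Zmat3. These ratios carry no test, since plasmid, depth and any batch cannot be told apart between the control groups.

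With dCas9-SCN9A the level of p53 targets moved little, and the expression of Trp53 itself did not pass the test. None of the 10 genes was called changed at an adjusted p under 0.05, where 0.0410% of the 14628 genes tested were called (6 genes, edgeR quasi-likelihood test, Benjamini-Hochberg adjusted). At an unadjusted p under 0.05, 1 of the 10 genes passed, Zmat3, against 10.1% of all genes tested (4.17% higher and 5.92% lower, the direction of Zmat3). DESeq2 called none of the 7 genes to which it gave an adjusted p. Of the 10 log2 fold changes 6 were above and 4 below 0, with a median of 0.01 where the median over all genes was 0.01. Their median size without sign was 0.03, against 0.09 over all genes, a comparison not matched for expression level. In RNA from whole cultures, a change in the share of expressing cells and one in RNA per cell cannot be told apart.

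Trp53 stood at 123.1, 115.3 and 129.4 CPM in the dCas9-empty libraries and at 123.5, 130.7 and 133.8 CPM in dCas9-SCN9A. The 2 groups overlapped, and the log2 fold change was 0.08 ± 0.06 (SE, adjusted p = 0.693). Cdkn1a, whose product p21 blocks cyclin-dependent kinases and which is the most used single readout of p53, stood at 71.7, 65.8 and 61.9 CPM in the controls. With dCas9-SCN9A it was at 69.8, 70.3 and 66.0 CPM, all within the range of the controls. Its log2 fold change was 0.05 with a 95% interval from -0.09 to 0.18, so a rise of Cdkn1a beyond 1.14-fold lies outside the interval.

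Mdm2, which encodes the ubiquitin ligase that degrades p53, stood at 144.7, 150 and 142.8 CPM in dCas9-empty and at 155.2, 143.8 and 145.7 CPM in dCas9-SCN9A. The groups overlapped, and the log2 fold change was 0.02 ± 0.05 (SE; adjusted p, 0.922). Among the genes that promote cell death, Bax, which permeabilises the outer mitochondrial membrane, was at 41.1, 45.5 and 44.4 CPM in the controls and at 45.8, 50.4 and 43.7 CPM with dCas9-SCN9A. Its log2 fold change of 0.10 ± 0.07 was the highest of the 10 and did not pass (adjusted p = 0.706). Bbc3, whose product PUMA neutralises anti-apoptotic BCL2 proteins, was at 35.5, 37.4 and 37.7 CPM in the controls and at 37.5, 41.9 and 32.3 CPM with dCas9-SCN9A, a wider spread around a similar mean.

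Zmat3 was the only gene of the 10 whose libraries did not overlap between the groups, where 15.7% of all genes tested did not. It stood at 65.4, 63.5 and 67.3 CPM in dCas9-empty and at 59.7, 55.5 and 57.6 CPM in dCas9-SCN9A, lower in 3 of 3. The log2 fold change was -0.18 ± 0.06 (SE), with a 95% interval from -0.31 to -0.05, an unadjusted p of 0.00854 and an adjusted p of 0.33. Log2 fold changes in this comparison moved with exon length over all genes, with a median of 0.09 in the fifth of genes with the shortest exons and of -0.06 in the fifth with the longest. Zmat3 has the longest merged exons of the 10, 11435 bases. With the exon-length trend removed its log2 fold change was -0.11 (adjusted p = 0.663).

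The remaining 4 targets overlapped between the groups, with log2 fold changes between -0.03 and 0.01. Phlda3, which competes with Akt for membrane lipids, ranged from 62.9 to 64.7 CPM in the controls and from 61.8 to 64.7 CPM with dCas9-SCN9A. Sesn1 ranged from 47.0 to 49.0 and from 44.8 to 48.5 CPM, and Ccng1, which encodes cyclin G1, from 31.1 to 36.4 and from 32.6 to 36.7 CPM. Trp53inp1, a stress-induced partner of p53, was tight in the controls at 15.6 to 15.9 CPM and ranged from 13.3 to 17.0 CPM with dCas9-SCN9A. Taking the 10 genes one at a time, the 95% intervals ran from 0.807-fold (Zmat3) to 1.19-fold (Bax) at their outermost.

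**Figure D2:**
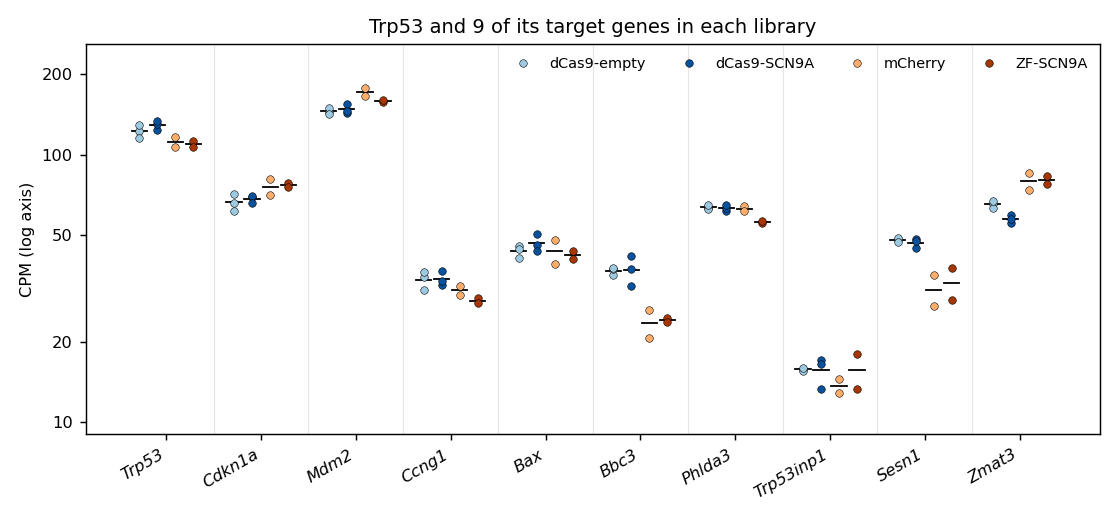
Level of Trp53 and the 9 target genes in every library, in CPM on a log axis; points are libraries of dCas9-empty and dCas9-SCN9A (3 each) and of mCherry and ZF-SCN9A (2 each), and bars are group means. The blue pairs of groups overlap for 9 genes and separate for Zmat3, and the orange pairs separate for Mdm2, Ccng1 and Phlda3.

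With ZF-SCN9A none of the 10 genes was called changed either, in an arm with many more calls among other genes. Of 12899 genes tested, 4.72% were called (609 genes, same edgeR test and adjustment). That number moved in both directions when single libraries were left out. Such fits leave 1 library in a group, and why the number moved was not tested. At an unadjusted p under 0.05 also none of the 10 passed, against 16.2% of all genes tested, and DESeq2 called none. Of the 10 log2 fold changes 5 were above and 5 below 0, with a median that rounds to 0.00 as over all genes. Their median size without sign was 0.07 against 0.13, again not matched for expression level.

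Trp53 was at 116.2 and 107.2 CPM in mCherry and at 112.5 and 107 CPM in ZF-SCN9A, overlapping, and the log2 fold change was -0.01 ± 0.08 (SE; adjusted p, 0.961). Cdkn1a was at 71.0 and 81.2 CPM in mCherry, and both ZF-SCN9A libraries, at 78.5 and 75.8 CPM, lay between those values. Its log2 fold change was 0.03, with a 95% interval from -0.16 to 0.21, or up to 1.16-fold.

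Mdm2, Ccng1 and Phlda3 were lower in both ZF-SCN9A libraries than in both mCherry libraries. These are 3 of the 10, where 45.8% of all genes tested had groups that did not overlap. Mdm2 was at 177.7 and 165.5 CPM in mCherry and at 157.7 and 160.8 CPM in ZF-SCN9A, and the log2 fold change was -0.10 ± 0.07 (SE; adjusted p, 0.555). Phlda3 was at 64.2 and 61.4 CPM against 55.7 and 56.6 CPM, and its log2 fold change of -0.15 ± 0.11 had the lowest adjusted p of the 10, 0.511. Ccng1 was at 32.4 and 30 CPM against 29.1 and 27.9 CPM, with a log2 fold change of -0.12.

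The death genes overlapped between mCherry and ZF-SCN9A. Bax was at 39.2 and 47.9 CPM against 40.8 and 43.6 CPM, and Bbc3 at 20.7 and 26.4 CPM against 24.5 and 23.8 CPM. Zmat3, which was lower in the dCas9 arm, was at 85.8 and 73.9 CPM in mCherry and at 77.6 and 83.2 CPM in ZF-SCN9A, with a log2 fold change of 0.02. Sesn1 was at 27.2 and 35.5 CPM against 37.8 and 28.5 CPM. Trp53inp1, the least expressed of the 10, was at 14.5 and 12.9 CPM against 18.0 and 13.3 CPM. It had the highest log2 fold change, 0.23 ± 0.19, and the widest interval, from 0.908-fold to 1.51-fold, with 61 to 118 reads per library behind it. A change of Trp53inp1 within that interval was not detectable with these libraries.

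The changes with both repressors were compared in 1 fit over all 10 libraries. None of the 10 genes differed between the repressors at an adjusted p under 0.05, where 0.907% of 15766 genes tested did, and none at an unadjusted p under 0.05, against 10.9%. Expressed as the change with dCas9-SCN9A minus the change with ZF-SCN9A, the log2 differences ran from -0.24 in Trp53inp1 to 0.15 in Phlda3. Zmat3, with a difference of -0.19 ± 0.11 and a 95% interval from -0.42 to 0.04, had the lowest adjusted p of the 10, 0.551. The lower level of Zmat3 with dCas9-SCN9A was therefore not shown to differ from its change with the zinc finger. For Cdkn1a the difference was 0.03 with an interval from -0.21 to 0.26, and for Trp53 0.10 with an interval from -0.10 to 0.30.

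**Figure D3:**
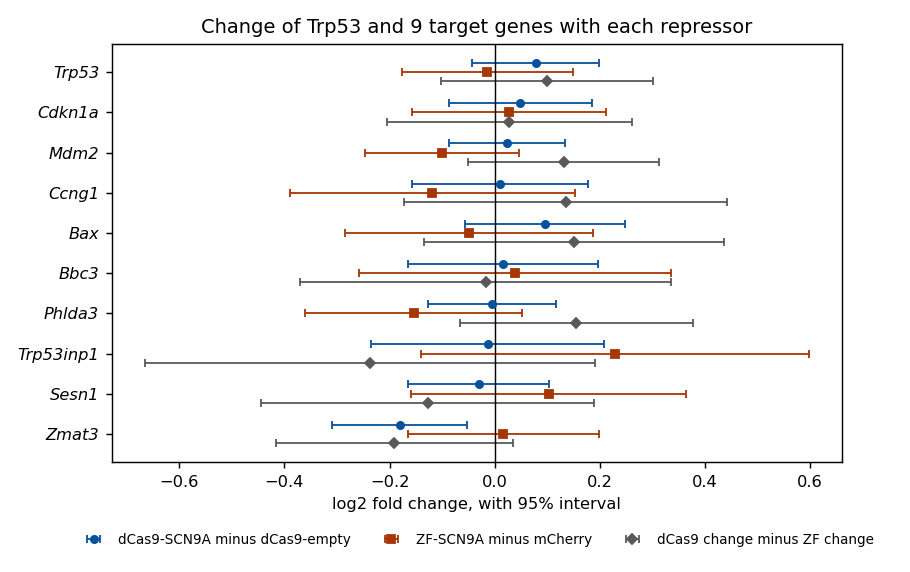
Log2 fold change of Trp53 and the 9 target genes with dCas9-SCN9A (blue circles) and ZF-SCN9A (orange squares) against the control of each, and the dCas9 change minus the ZF change (grey diamonds), with 95% intervals from edgeR. All intervals include 0 except that of Zmat3 with dCas9-SCN9A, which runs from -0.31 to -0.05.

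Across libraries none of the 9 targets was among the genes most correlated with Trp53. After the mean of each arm was removed from log2 CPM, the genes most correlated with Trp53 over the 10 libraries were Arpp21 (Pearson's r = 0.973), Socs5 (0.965) and Icosl (0.925), out of 15765 genes. Phlda3 came nearest of the 9 targets, with r = 0.375 at rank 2681. The other 8 lay between -0.364 in Bbc3 and 0.03 in Trp53inp1. These correlations are descriptions over libraries that share plasmid, depth and arm. Trp53 varied little, with a coefficient of variation of 3.56 to 5.75% within groups, so they cannot decide whether the targets follow it. The 3 highest values were picked from all 15765 genes and carry no test.

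The other genes of the p53 pathway were taken from 7 lists of 108 genes in all, chosen with earlier results of these data known. With dCas9-SCN9A none of the 98 tested was called by edgeR's quasi-likelihood test, 4 were higher and 7 lower at an unadjusted p under 0.05 (4.17% and 5.92% of all genes), and DESeq2, which returned adjusted values for 54 of them, called none. Their median log2 fold change rounds to 0.00, against 0.01 over all genes. With ZF-SCN9A 10 of the 95 tested were called, 3 higher and 7 lower, where 1.95% of all genes were called higher and 2.78% lower. The median of the 95 was 0.04. The 4 lists of further direct targets (arrest, apoptosis, DNA repair, and metabolism and growth) held 3 of the 10 calls, with 2 higher and 1 lower among 51 tested. DESeq2 called 1 of the 10, Daxx.

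Among regulators of p53, 4 of 17 tested fell with ZF-SCN9A, where 2.78% of all genes were called lower. The list was chosen with earlier results of these data known, so this count is no test of it. None of 17 was called with dCas9-SCN9A, where 4 were lower at an unadjusted p under 0.05, against 5.92% of all genes. Daxx encodes a histone H3.3 chaperone that binds MDM2, and stood at 41.8 and 41.7 CPM in mCherry and at 23.1 and 24.6 CPM in ZF-SCN9A. In the dCas9 arm it ranged from 37.3 to 41.0 CPM in the controls and from 38.0 to 40.7 CPM with the repressor. Its log2 fold change with ZF-SCN9A was -0.80 ± 0.14 (SE, adjusted p = 5.51e-07), or 0.572-fold. Kat5 encodes the acetyltransferase TIP60, which acts on p53 and ATM. It was at 27.1 and 29.6 CPM in mCherry and at 17.7 and 13.7 CPM in ZF-SCN9A, a log2 fold change of -0.82 ± 0.16 (adjusted p = 3.15e-05) or 0.565-fold. Both genes thus had lower levels in both ZF-SCN9A libraries than in any of the 8 other libraries.

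The change of Daxx and Kat5 differed between the repressors, each against its own control. Repressor, control plasmid, depth and any batch differ together between the arms and cannot be told apart in this contrast. The dCas9 change minus the ZF change was 0.85 ± 0.14 for Daxx (adjusted p = 0.000467) and 0.98 ± 0.17 for Kat5 (adjusted p = 0.000866), the only 2 of the 101 pathway genes tested in that contrast to pass, where 0.647% of all genes passed in this direction. Kat5 shares 12.1% of its exon bases with Rnaseh2c on the opposite strand, and strand was not used in counting. DESeq2 kept the call of Daxx and gave Kat5 an adjusted p of 0.084 with ZF-SCN9A.

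**Figure D4:**
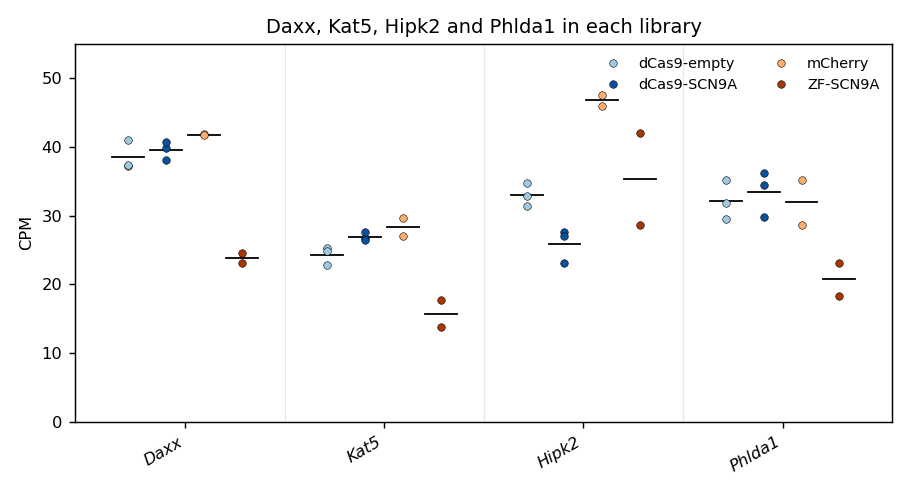
Level in every library of Daxx, Kat5, Hipk2 and Phlda1, the genes of the pathway lists with the most negative log2 fold changes with ZF-SCN9A, in CPM on a linear axis from 0; points are libraries and bars group means. Daxx and Kat5 are lower in both ZF-SCN9A libraries (23.1 and 24.6, and 17.7 and 13.7 CPM) than in all others.

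Hipk2, a kinase that phosphorylates p53, and Ep300, the acetyltransferase p300, also fell with ZF-SCN9A. Hipk2 was at 47.6 and 46.0 CPM in mCherry and at 28.6 and 42.1 CPM in ZF-SCN9A, with a log2 fold change of -0.43 ± 0.12 (adjusted p = 0.017). Without ZF-SCN9A replicate 1 it was -0.15 (adjusted p = 0.811), and without mCherry replicate 1 -0.41 (adjusted p = 0.129). Ep300 was at 199.8 and 176.4 CPM against 156.2 and 163.4 CPM, with a log2 fold change of -0.23 ± 0.07 (adjusted p = 0.0434). Its adjusted p was 0.569 without mCherry replicate 1, where the log2 fold change was -0.14, and 0.486 and 0.208 without ZF-SCN9A replicate 1 and 2. With the exon-length trend removed the log2 fold change of Ep300 was -0.17 (adjusted p = 0.197), and DESeq2 called neither gene.

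With dCas9-SCN9A the same kinase had a log2 fold change of -0.35 ± 0.08, which did not pass (adjusted p = 0.173), at 31.4 to 34.7 CPM in the controls and 23.1 to 27.6 CPM with the repressor. Ep300 and its paralog Crebbp were at -0.19 and -0.23 (adjusted p = 0.268 and 0.219). Without the filter on low counts Hipk2 passed, at -0.36 (adjusted p = 0.0102). Cdkn2a, which encodes the MDM2 inhibitor ARF, was well expressed at 93.5 ± 3.39 CPM in dCas9-empty (SD, n = 3) and 87.6 ± 0.0965 CPM in mCherry (SD, n = 2). Its log2 fold changes were 0.08 and 0.02.

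Of the further targets, Trp53i11 and Ddit4 rose and Tigar fell with ZF-SCN9A. Ddit4 encodes REDD1, an inhibitor of mTORC1, and was at 312.4 and 375.1 CPM in mCherry and at 437.9 and 389.7 CPM in ZF-SCN9A, a log2 fold change of 0.28 ± 0.06 (adjusted p = 0.00105). Without mCherry replicate 1 it was 0.15 (adjusted p = 0.404) and without ZF-SCN9A replicate 1 0.19 (adjusted p = 0.427). Trp53i11 was at 109.6 and 119 CPM against 137.4 and 140.3 CPM, a log2 fold change of 0.29 ± 0.08 (adjusted p = 0.0119). Its adjusted p was 0.213 without mCherry replicate 1 and 0.16 and 0.192 without ZF-SCN9A replicate 1 and 2. Tigar encodes a fructose bisphosphatase that slows glycolysis, and was at 39.5 and 36.1 CPM against 25.4 and 31.6 CPM, a log2 fold change of -0.42 ± 0.13 (adjusted p = 0.0435). Without ZF-SCN9A replicate 1 it was -0.25 (adjusted p = 0.656), and the adjusted p was 0.323 without mCherry replicate 1 and 0.0502 without ZF-SCN9A replicate 2. Without a filter on low counts the adjusted p of Tigar was 0.065, and DESeq2 called none of these 3.

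The arrest and DNA repair lists had no call in either arm. At an unadjusted p under 0.05, none of 11 arrest genes passed with dCas9-SCN9A and 2 of 10 with ZF-SCN9A, and 1 of 8 repair genes passed in each arm. Over all genes tested the shares were 10.1% with dCas9-SCN9A and 16.2% with ZF-SCN9A, so these counts set neither list apart. The lowest unadjusted p-values of the arrest list belonged to Sfn (log2 fold change 0.51) and Gtse1 (0.11) with dCas9-SCN9A and to E2f7 (-0.35) and Pml (-0.30) with ZF-SCN9A, with adjusted p of 0.588, 0.712, 0.0632 and 0.185. E2f7 passed without mCherry replicate 2. In the DNA repair list Polh (0.14) and Xpc (-0.12) had the lowest with dCas9-SCN9A and Rrm2b (0.32) with ZF-SCN9A, with adjusted p of 0.489, 0.633 and 0.185.

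Genes that p53 lowers indirectly, through p21, RB and the DREAM complex, are cell-cycle genes and would mark arrest. All 22 were tested in both arms. None was called with dCas9-SCN9A, where 0.0410% of all genes were. At an unadjusted p under 0.05, 1 of the 22 was higher in that comparison, against 4.17% of all genes. There 14 had positive and 8 negative log2 fold changes, with a median of 0.02 against 0.01 over all genes. With ZF-SCN9A 18 were positive and 4 negative, with a median of 0.09 against 0.0017 over all genes. In that arm 1 rose and 1 fell, where 1.95% of all genes were called higher and 2.78% lower. Prc1, which bundles microtubules in the dividing cell, rose by a log2 fold change of 0.28 ± 0.09 (adjusted p = 0.0366), from 89.5 and 81.8 to 101.7 and 104.8 CPM. It shares 11.1% of its exon bases with Rccd1 on the opposite strand. Mki67, the proliferation marker Ki-67, fell by 0.22 on the log2 scale (adjusted p = 0.02), from 476.3 and 472 to 391 and 422.6 CPM. Without ZF-SCN9A replicate 1 and 2 the adjusted p was 0.227 and 0.306 for Prc1 and 0.556 and 0.111 for Mki67. It was 0.197 for Prc1 without mCherry replicate 2 and 0.11 for Mki67 without mCherry replicate 1, and DESeq2 called neither. The adjusted p of Prc1 was 0.114 without a filter on low counts, and that of Mki67 0.0681 with the exon-length trend removed.

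**Figure D5:**
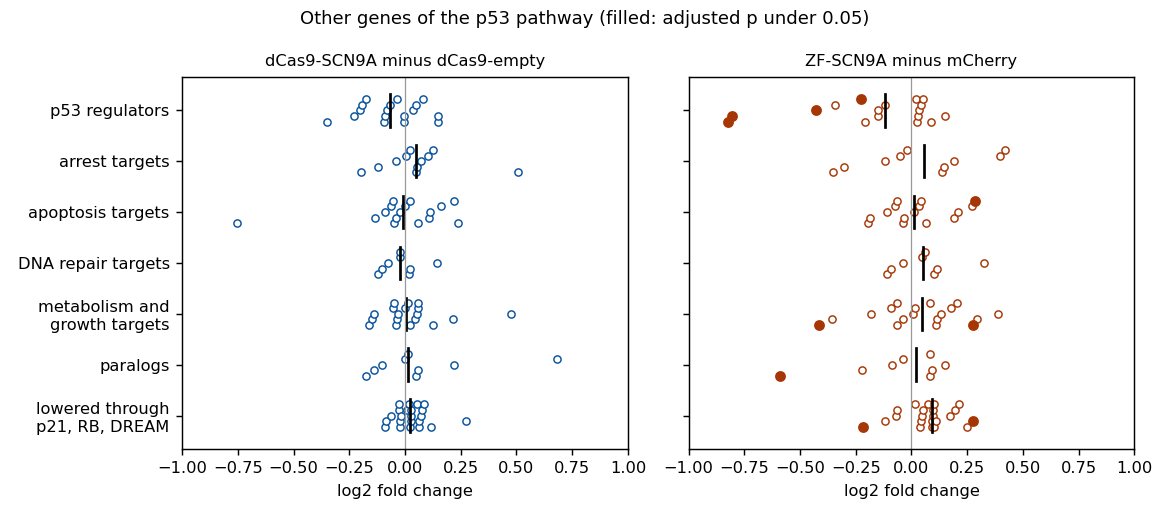
Log2 fold change of the other genes of the p53 pathway by list, with dCas9-SCN9A (left) and ZF-SCN9A (right); each point is a gene, filled where edgeR's adjusted p was under 0.05, and vertical bars are list medians. No gene is filled on the left, and 10 are on the right, of which 4 are regulators of p53 that fell.

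Paralogs of the 10 genes were also read, since they share functions but not always the response to p53. Of the p53 family only Trp53 was expressed: Trp63 had no read in any library and Trp73 was below 1 CPM in every library. Phlda2 and Cdkn1c averaged 0.582 and 0.75 CPM in dCas9-empty. Cdkn1b, which encodes p27, was higher than Cdkn1a on the length-scaled measure (44.5 against 18.7 CPM per kb in dCas9-empty). In dCas9-empty Sesn2 exceeded Sesn1 (21.1 against 12.1), Ccng2 exceeded Ccng1 (20.1 against 9.70) and Trp53inp2 exceeded Trp53inp1 (31.7 against 2.43 CPM per kb). The order of the cyclin G genes was the opposite in mCherry, with Ccng2 at 6.71 and Ccng1 at 8.88 CPM per kb. In mCherry Ccng2 was at 36.6 ± 2.22 CPM (SD, n = 2) against 109.6 ± 9.35 in dCas9-empty (SD, n = 3), a difference between control groups that cannot be told apart from depth or batch.

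Phlda1 was the only paralog called, and only with ZF-SCN9A, among 8 tested there, where 2.78% of all genes were called lower. Of 9 tested with dCas9-SCN9A, 1 was higher and 1 lower at an unadjusted p under 0.05, against 4.17% and 5.92% of all genes. Phlda1 was at 35.2 and 28.7 CPM in mCherry and at 23.1 and 18.3 CPM in ZF-SCN9A, a log2 fold change of -0.59 ± 0.15 (adjusted p = 0.00299). The value was -0.44 (adjusted p = 0.223) without mCherry replicate 1 and -0.45 (adjusted p = 0.225) without ZF-SCN9A replicate 2, and DESeq2 gave 0.387. Of its exon bases 33% are shared with Gm28592 on the opposite strand. The difference in its change between the repressors was 0.66 ± 0.18 (adjusted p = 0.0694), so it was not shown to be particular to the zinc finger. Mdm4, which inhibits p53 beside MDM2, was at 0.05 with dCas9-SCN9A and 0.15 with ZF-SCN9A (adjusted p = 0.847 and 0.343). Sesn2, Ccng2, Trp53inp2 and Cdkn1b had log2 fold changes between -0.17 and 0.09 in both arms. Sesn3 was at -0.14 and -0.22 (adjusted p = 0.47 and 0.252), and Bak1 at 0.22 and -0.04 (adjusted p = 0.396 and 0.955).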

How the data were processed

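Each library had a file of raw read counts per gene, deposited by the authors without normalization. The submitters' processing notes name build GRCm38 and the tools STAR 2.7.3a, bcl2fastq 2.20 and DESeq2; for annotation release and counting options nothing was given in the sources used here. The columns for either strand held equal shares (ratio 1.001 to 1.009), so the unstranded column was used. Of 55401 identifiers, 55141 matched GENCODE M21, which gave symbols, coordinates and exon lengths. Entries that name no gene held 25 to 28.2% of listed reads and were left out, as were 4 plasmid entries. All replicate pairs differed beyond sampling noise (chi-square per degree of freedom of at least 1.915).

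Genes were tested with edgeR 4.0.16 (limma 3.58.1, R 4.3.3): quasi-likelihood test, robust, TMM scaling, filterByExpr, two-sided, Benjamini-Hochberg over all genes tested, called at an adjusted p under 0.05. Every adjusted p is from this test unless DESeq2 (1.42.0) is named. Each arm was fitted alone, leaving 4 residual degrees of freedom in the dCas9 arm and 2 in the ZF arm; in the latter the prior degrees of freedom were infinite for 88% of genes, so those p-values rest on spread shared across genes. The difference between repressors was a contrast over all 10 libraries. Scripts were tested on simulated data. Alternatives were DESeq2's size factors, no filter on low counts, an exon-length trend removed as an offset, DESeq2, the replicate number as a block, leaving out each library, and another length or scaling for levels.

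The 10 genes and the lists were chosen with earlier results of these data known. Beside the 10, the text names genes of the lists that were called in either arm, the 2 with the lowest p in each arm where a list had no call, the paralogs, Scn9a, and the 3 genes most correlated with Trp53 (log2 CPM with prior count 2). Crebbp and Cdkn2a were named after their values were seen. A gene that the rule names is not reported here.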

Additional observations from a re-analysis of the deposited data

Results flagged for a closer look

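The changes of Daxx and Kat5 differed between the repressors in a test of the difference itself, over all 10 libraries. The arms also differ in control plasmid, depth and any batch, which cannot be told apart from the repressor here. The dCas9 change minus the ZF change was 0.85 ± 0.14 on the log2 scale for Daxx (adjusted p = 0.000467) and 0.98 ± 0.17 for Kat5 (adjusted p = 0.000866), edgeR quasi-likelihood test, Benjamini-Hochberg adjusted over 15766 genes. Over the 10 fits that leave out a library, the difference lay between 0.80 and 0.90 for Daxx and between 0.83 and 1.20 for Kat5, and the call was kept in each. Of Trp53 and its 9 targets, none passed that test. The groups had 2 or 3 libraries, too few for a test of single outlying libraries.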

How the results depend on the processing

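None of the 10 genes was called under any alternative run, in either arm or in the difference between the repressors; with dCas9-SCN9A DESeq2 gave no adjusted p for Ccng1, Bbc3 and Trp53inp1. The lowest adjusted p over the alternatives was 0.114 for Zmat3 with dCas9-SCN9A (replicate block), 0.281 with ZF-SCN9A and 0.451 in the difference. The number of genes called with dCas9-SCN9A, 6, became 172 without a filter, 2 with the exon-length trend removed, 57 with DESeq2 and 1 to 34 with a library left out. With ZF-SCN9A 609 became 115 with DESeq2 and 201 to 787 with a library left out, and the difference between repressors, 143, became 274 without a filter and 71 to 241. Among the other pathway genes, Hipk2 was the 1 gene called with dCas9-SCN9A without a filter; with ZF-SCN9A 10 became 1 with DESeq2 and 3 to 10 with a library left out; in the difference 2 became 4 without a filter and 2 to 3 with a library left out.

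Signs of changes near 0 turned, and the cause was not tested. With the exon-length trend removed, the log2 fold change with dCas9-SCN9A was -0.0042 for Ccng1, -0.022 for Bbc3 and 0.0087 for Trp53inp1, and without a filter that of Zmat3 with ZF-SCN9A was -0.0029. With a library left out, values with dCas9-SCN9A ran from -0.0069 to 0.053 for Mdm2, -0.043 to 0.065 for Ccng1, -0.071 to 0.11 for Bbc3, -0.015 to 0.017 for Phlda3, -0.076 to 0.096 for Trp53inp1, -0.047 to 0.0045 for Sesn1, -0.16 to 0.068 for Tigar, -0.0062 to 0.086 for Prc1, -0.11 to 0.028 for Mki67 and -0.11 to 0.020 for Ddit4. With ZF-SCN9A they ran from -0.068 to 0.044 for Trp53, -0.064 to 0.13 for Cdkn1a, -0.18 to 0.11 for Bax, -0.12 to 0.23 for Bbc3, -0.031 to 0.40 for Trp53inp1, -0.13 to 0.32 for Sesn1 and -0.086 to 0.12 for Zmat3. For the difference they ran from -0.074 to 0.12 for Cdkn1a, -0.0044 to 0.28 for Bax, -0.21 to 0.14 for Bbc3, -0.41 to 0.024 for Trp53inp1, -0.34 to 0.11 for Sesn1, -0.052 to 0.13 for Ep300 and -0.20 to 0.36 for Hipk2.

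Adding the replicate block, 262 genes were called with dCas9-SCN9A, among them Hipk2, Ep300 and Crebbp (3 pathway genes), and 5 pathway genes with ZF-SCN9A. With ZF-SCN9A the block lost the calls of Hipk2, Ep300, Tigar, Ddit4 and Prc1. Libraries with the same number correlated at 0.241, 0.166 and 0.04 in the dCas9 arm. Replicates 1 and 2 of dCas9-empty correlated best with their own number, and replicate 3 with dCas9-SCN9A replicate 2 (0.102). In the ZF arm, with 2 libraries per group, centring fixes the size of the value (0.06) for every pair. The labels do not say whether a number marks a shared culture or day, so the pairing was not established and the block serves as an alternative only.

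The median level of the 10 genes was 18.0 CPM per kb in dCas9-empty and 16.3 in mCherry. It was 26.1 and 23.5 with the longest transcript as length, 17.5 in dCas9-empty with plain library size, and 17.8 to 18.3 and 14.9 to 17.6 with a library left out. Read numbers were lowest for Trp53inp1, at 61 to 118 per library in the ZF arm. Where leaving out a library of the ZF arm left a group with 1, that library is assumed to vary like the other group.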
